A study of Mus musculus with 8 samples.

Results

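The transcripts described here are those of the FoxO factors Foxo1, Foxo3 and Foxo4, of the factor Klf15, and of Depp1, Sesn1, Sesn3, Gadd45a and Cdkn1a, which FoxO factors are known to switch on. They were taken as all probe sets whose only gene symbol in the platform annotation is one of these 9 genes, which gave 21 of the 45101 probe sets on the array. Of the 21, 18 lay above a filter on dim signals, with at least 1 for each of the 9 genes. A further probe set annotated to Foxo3 together with another gene was not a member. Whole gastrocnemius, a large muscle of the calf, was profiled with 1 Affymetrix array for each of 8 samples. The 4 GR KO samples carried a knockout of the glucocorticoid receptor, the hormone-activated transcription factor encoded by Nr3c1, and the other 4 samples were labelled wild type. All came from mice of the C57/Bl6J background, and the series' own text names the knockout GR(i)skm-/- and calls its counterpart the control. The promoter and recombinase behind the knockout, any inducing agent, and the age, sex and feeding state of the mice, are in none of the sources used here.

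FoxO factors are forkhead transcription factors that insulin and IGF-1 signalling, through the kinase Akt, keeps out of the nucleus. In muscle they are known to switch on genes of protein breakdown and autophagy during fasting and disuse. Klf15 is a zinc finger factor that glucocorticoids induce in muscle, where it drives enzymes of amino acid breakdown. The glucocorticoid receptor is itself known to induce Foxo1, Foxo3, Klf15 and Cdkn1a in several tissues. The comparison asks how these transcripts differ in muscle when the receptor gene is disrupted.

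The values are MAS5 signals on a linear scale, scaled by array to a common trimmed mean. Precision is limited by the small number of arrays. The median signal over all probe sets lay between 18 and 24 on the GR KO arrays and between 19 and 26 on the wild-type arrays. The geometric mean of 18 hybridisation spike-in probe sets was 521 to 865 on the GR KO arrays and 496 to 623 on 3 of the wild-type arrays, but 1765 on wild-type replicate 4, which was 3.17-fold the geometric mean of the other wild-type arrays. The knocked-out gene was checked first. Nr3c1 probe set 1460303_at had signals of 134, 79, 76 and 94 on GR KO replicates 1 to 4, against 377, 307, 307 and 352 on the wild-type arrays (log2 fold change -1.84 ± 0.20 SE, limma adjusted p = 0.0240). The groups were well apart, but the call was lost without the filter (adjusted p = 0.123), with the mean of its probe sets (0.161), without the variance trend (0.0695) and with the replicate number as a block (0.0596). It was also lost in 5 of 8 fits with 1 array left out, without wild-type replicate 1 (0.191) or 3 (0.122) or GR KO replicate 2 (0.153), 3 (0.0797) or 4 (0.0985). Over those 8 fits the log2 fold change ran from -2.02 to -1.74. The other Nr3c1 probe sets had log2 fold changes between -1.96 and -0.32. Where each lies relative to the deletion was not analysed here. The smallest p-value of all probe sets tested was that of 1460303_at. At 1421867_at, the Nr3c1 probe set with the highest mean log2 signal, the groups overlapped, with 105 to 222 in GR KO and 213 to 513 in wild-type muscle. Its log2 fold change was -1.07 (limma adjusted p = 0.963).

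In GR KO muscle, Cdkn1a, Depp1 and Klf15 had the lowest signals relative to wild type among the 9 genes, at 59.2%, 59.1% and 72.7% of the wild-type level at their brightest probe sets. The 3 FoxO factors and the sestrins lay closer to wild type. None of these differences passed the test across the whole table. In limma over 22518 probe sets, 0 of the 18 probe sets tested passed an adjusted p of 0.05 in either direction, against a background of 0.0222% of all probe sets lower in GR KO muscle and 0% higher. At an unadjusted p under 0.05, 5 of the 18 were lower and 0 higher, where 2.07% of all probe sets were lower and 1.68% higher. Those 5 probe sets belong to only 3 genes, Cdkn1a, Depp1 and Klf15, and probe sets of one gene are not independent measurements. The GR KO signals lay below all wild-type signals at 3 of the 18, against 1.21% of all probe sets tested. They lay above all of them at 0 of the 18, against 0.981%. The 3 are both Cdkn1a probe sets and the Klf15 probe set. All are among those 5, so this is not a second result.

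Among the 18 probe sets, the fold change was below wild type at 13 and above it at 5, and the median log2 fold change was -0.16, where the median of all probe sets tested was -0.01 and 52.2% lay below 0. The 95% interval of the fold change, unadjusted for the number of probe sets, lay wholly below 0 for 5 of the 18 and spanned 0 for 13. These are the same 5 that had an unadjusted p under 0.05, so this is not a second result. Of all probe sets tested, 2.07% were lower at that level. With single arrays left out, the median of the 18 ranged from -0.27 without GR KO replicate 1 to -0.087 without GR KO replicate 4. In whole muscle, fewer cells of a type and less RNA per cell cannot be told apart.

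**Figure D1:**
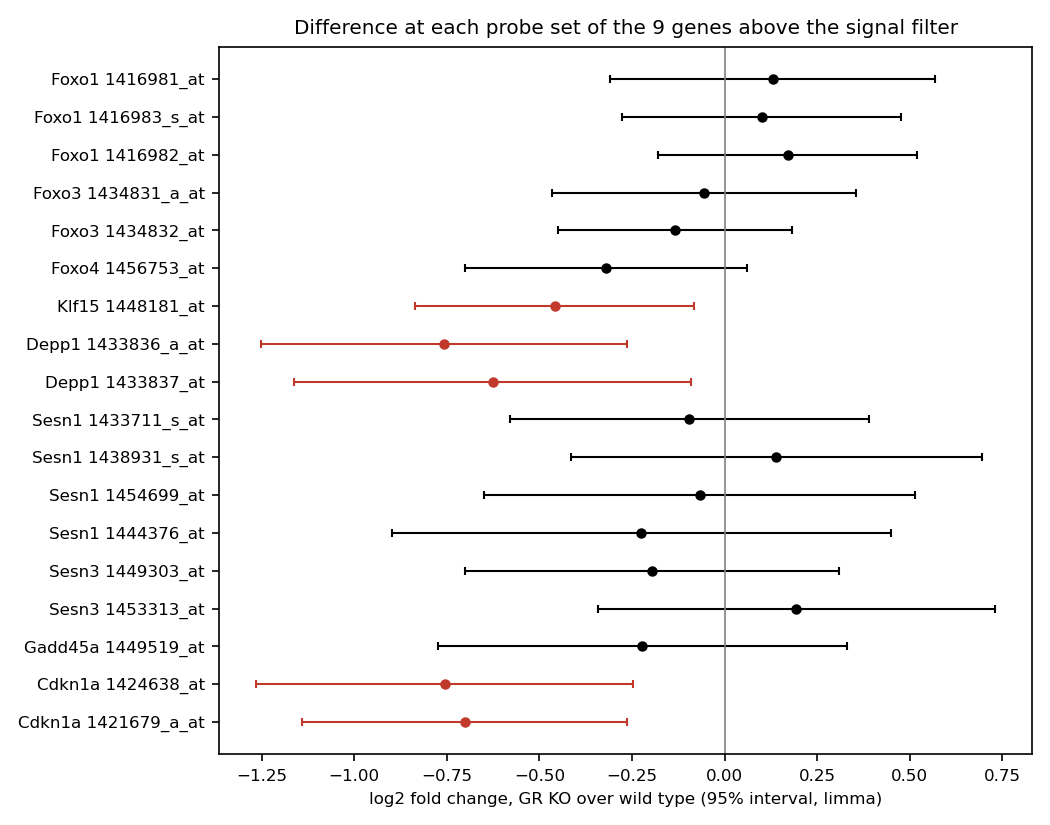
Points are log2 fold changes of GR KO over wild type for the 18 probe sets above the signal filter. Bars are unadjusted 95% intervals from limma with 4 arrays per group. The intervals of both Cdkn1a probe sets, both Depp1 probe sets and the Klf15 probe set, drawn in red, lie below 0, and the other 13 span it.

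The promoter windows of the genes with the largest differences are shown with that of Sesn1, because Sesn1 had the only window of the group with the full FoxO letters while its signals lay near wild type. The sequences are from RefSeq on GRCm38.p6 and run from 250 bases before to 50 bases after an annotated start, 5′ to 3′ on the gene's strand. Windows were found for 8 of the 9 genes, 10 windows in all, and Foxo4 had no entry. Capitals mark every match, on either strand, to the FoxO letters GTAAACA, to the glucocorticoid receptor half-site AGAACA, to the Klf letters CACCC, or to a pair of CATG cores spaced as in p53 elements, CATGNNNNNNCATG.
Cdkn1a upstream start, chr17:29090729-29091028, plus strand: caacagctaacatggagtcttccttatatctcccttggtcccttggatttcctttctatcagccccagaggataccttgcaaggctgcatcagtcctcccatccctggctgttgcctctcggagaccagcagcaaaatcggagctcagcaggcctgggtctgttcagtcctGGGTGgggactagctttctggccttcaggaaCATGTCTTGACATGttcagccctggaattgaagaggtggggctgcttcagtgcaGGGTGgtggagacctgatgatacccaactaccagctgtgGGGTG
Cdkn1a downstream start, chr17:29093519-29093818, plus strand: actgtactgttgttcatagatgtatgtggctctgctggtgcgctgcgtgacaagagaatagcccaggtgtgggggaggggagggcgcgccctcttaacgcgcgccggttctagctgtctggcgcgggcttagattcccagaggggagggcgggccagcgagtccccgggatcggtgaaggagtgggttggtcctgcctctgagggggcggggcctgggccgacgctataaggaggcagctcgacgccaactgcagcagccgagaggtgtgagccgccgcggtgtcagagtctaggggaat
Depp1, chr6:116650434-116650733, plus strand: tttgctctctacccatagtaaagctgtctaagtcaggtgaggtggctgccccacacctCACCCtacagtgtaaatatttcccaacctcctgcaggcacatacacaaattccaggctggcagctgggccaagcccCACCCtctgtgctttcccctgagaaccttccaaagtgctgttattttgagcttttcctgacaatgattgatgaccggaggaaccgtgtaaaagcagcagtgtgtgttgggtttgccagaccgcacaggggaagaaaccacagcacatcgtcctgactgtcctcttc
Klf15, chr6:90462326-90462625, plus strand: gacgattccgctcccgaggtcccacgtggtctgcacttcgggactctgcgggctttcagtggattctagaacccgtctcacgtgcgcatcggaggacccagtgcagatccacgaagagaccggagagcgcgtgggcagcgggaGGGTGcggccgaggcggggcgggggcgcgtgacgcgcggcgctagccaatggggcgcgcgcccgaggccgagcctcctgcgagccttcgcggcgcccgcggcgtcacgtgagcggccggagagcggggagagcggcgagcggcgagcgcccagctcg
Sesn1 upstream start, chr10:41810324-41810623, plus strand: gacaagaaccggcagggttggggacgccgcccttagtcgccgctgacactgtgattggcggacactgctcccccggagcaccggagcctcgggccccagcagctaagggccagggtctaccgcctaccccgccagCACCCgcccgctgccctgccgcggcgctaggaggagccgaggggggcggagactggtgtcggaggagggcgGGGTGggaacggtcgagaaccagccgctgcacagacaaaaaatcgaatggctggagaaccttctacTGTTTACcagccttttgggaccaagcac

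The FoxO letters were found once in the 10 windows, 23 bases after the upstream Sesn1 start, read there as TGTTTAC. Among 32851 promoter windows of this length in the RefSeq table, 3.65% held these letters. The glucocorticoid receptor half-site was found in 0 of the 10 windows and in 19% of all windows. The full receptor site, that half-site followed by any 3 bases and its reverse complement, was found in 0 of the 10 and in 0.00913% of all. The shorter FoxO core AAACA, not set in capitals, was in 3 of the 10 windows, that of Foxo1 and both of Sesn1, and in 50.5% of all. The Klf letters were in 7 of the 10 windows, those of Depp1, Klf15, Sesn3 and Gadd45a, both of Sesn1 and the upstream one of Cdkn1a, and in 57.5% of all. The paired CATG cores stood once, from base -48 of the upstream Cdkn1a window, and 0.712% of all windows held such a pair. That last motif was chosen after the Cdkn1a window had been read. Receptor and FoxO sites outside these short windows were not searched.

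Cdkn1a encodes p21, an inhibitor of cyclin-dependent kinases that p53 and FoxO factors both switch on. Probe set 1421679_a_at had signals of 102, 128, 119 and 127 on GR KO replicates 1 to 4, against 175, 226, 249 and 140 on wild-type replicates 1 to 4. All 4 GR KO signals lay below all 4 wild-type signals, and the GR KO signals were close together while the wild-type signals spread more widely. The mean signal was 119 ± 12.0 in GR KO and 198 ± 49.3 in wild-type muscle (SD, n = 4 each), and the log2 fold change was -0.70 ± 0.20 (SE, 95% interval -1.14 to -0.26, limma adjusted p = 0.963). The second probe set, 1424638_at, had 107, 187, 162 and 224 in GR KO muscle, against 304, 243, 344 and 232 in wild-type muscle. Its groups did not overlap either, although GR KO replicate 4, at 224, came within a few units of wild-type replicate 4, at 232. The log2 fold change there was -0.76 ± 0.23 (SE, 95% interval -1.26 to -0.25, limma adjusted p = 0.963).

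Depp1 encodes a small protein known as a direct FoxO target that is induced by fasting and progesterone and linked to autophagy. Probe set 1433836_a_at had signals of 150, 227, 250 and 195 in GR KO muscle, against 425, 230, 398 and 349 in wild-type muscle. The groups overlapped only through wild-type replicate 2, whose 230 lay below the 250 of GR KO replicate 3. The mean signal was 206 ± 43.3 in GR KO and 350.5 ± 86.3 in wild-type muscle (SD, n = 4 each), and the log2 fold change was -0.76 ± 0.22 (SE, 95% interval -1.25 to -0.26, limma adjusted p = 0.963). At 1433837_at the signals were 102, 145, 161 and 92 in GR KO muscle, against 202, 129, 247 and 193 in wild-type muscle, and wild-type replicate 2 was again the lowest wild-type array. The log2 fold change at that probe set was -0.63 ± 0.24 (SE, 95% interval -1.16 to -0.09, limma adjusted p = 0.963). Without wild-type replicate 2 the 2 log2 fold changes were -0.95 and -0.81.

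Klf15 was measured by 1 probe set, 1448181_at. Its signals were 199, 203, 154 and 160 in GR KO muscle, against 294, 204, 222 and 267 in wild-type muscle. The groups did not overlap, but only by 1 unit, between 203 on GR KO replicate 2 and 204 on wild-type replicate 2. The mean signal was 179 ± 25.6 in GR KO and 247 ± 41.2 in wild-type muscle (SD, n = 4 each), and the log2 fold change was -0.46 ± 0.17 (SE, 95% interval -0.84 to -0.08, limma adjusted p = 0.963). That interval runs from 56.0% to 94.5% of the wild-type level. The genes whose signals followed Klf15 most closely over the 8 arrays were the chromatin reader Ing2 (Pearson r = 0.977, Spearman rho = 0.929), the alcohol dehydrogenase Adh7 (0.973 and 0.909) and the phosphodiesterase Pde7a (0.965 and 0.952). They are the closest of 18734 probe sets compared on the same 8 arrays, so the coefficients describe these arrays only and have no p-value. Their log2 fold changes were -0.39, -0.34 and -0.73.

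**Figure D2:**
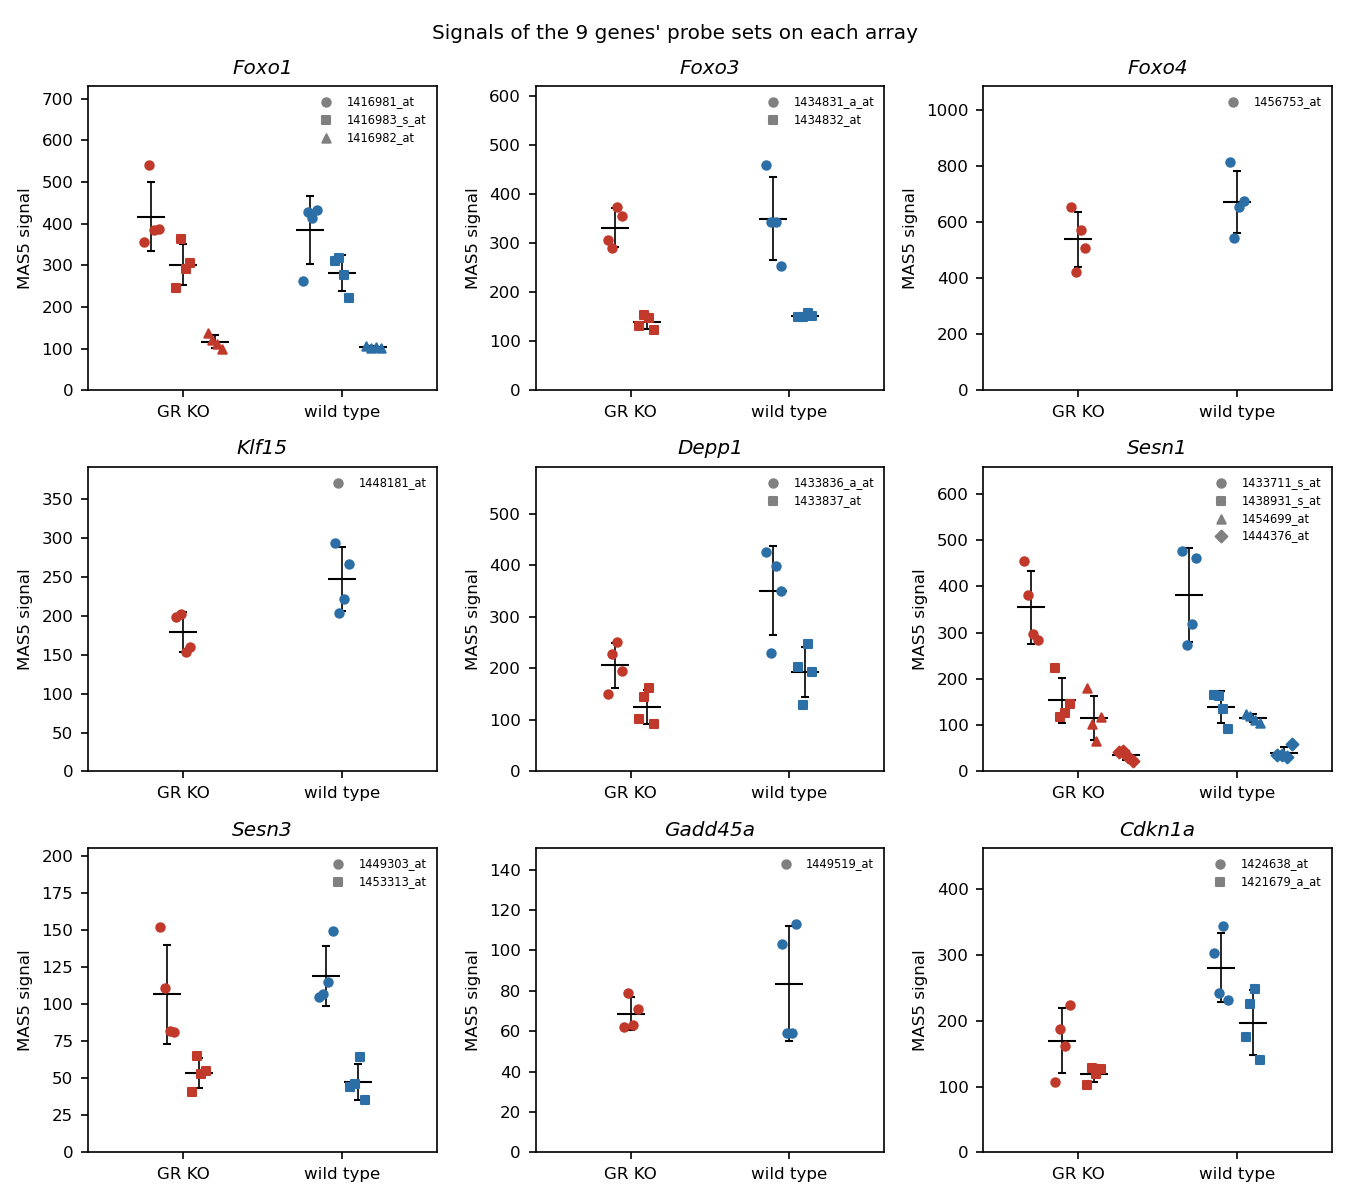
Each panel plots the MAS5 signal (linear axis from 0) of 1 gene on the 4 GR KO arrays (red) and the 4 wild-type arrays (blue), with a marker shape for each probe set above the filter and black bars for the mean and SD. Only both Cdkn1a probe sets and the Klf15 probe set have GR KO signals that all lie below the wild-type signals.

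Foxo1 is the FoxO factor with the best described induction by glucocorticoids and fasting in muscle. At its brightest probe set, 1416981_at, the signals were 357, 540, 384 and 388 in GR KO muscle, against 262, 428, 414 and 432 in wild-type muscle. The groups overlapped, with GR KO replicate 2 the highest array and wild-type replicate 1 the lowest. The log2 fold changes at 1416981_at, 1416983_s_at and 1416982_at were 0.13 ± 0.20, 0.10 ± 0.17 and 0.17 ± 0.16 (SE), with limma adjusted p-values of 0.963 to 0.966. The interval at the brightest probe set ran from 80.7% to 148% of the wild-type level. Without wild-type replicate 1 its log2 fold change was -0.045, and with the mean of all 4 Foxo1 probe sets, the dim one included, it was 0.48. The remaining probe set, 1456529_at, was below the filter, with signals of 4 to 15 in GR KO and 1 to 12 in wild-type muscle.

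Over the 8 arrays, 18732 probe sets were compared with Foxo1 probe set 1416981_at alone. Closest were the acetyltransferase-like gene Nat8f1 (Pearson r = 0.969, Spearman rho = 0.886) and the zinc finger repressor Hic2 (0.969 and 0.880). Ccnd3, cyclin D3, came next (0.944 and 0.850). The log2 fold changes of these 3 genes were 0.26, 0.16 and 0.45, and none passed the test (limma adjusted p = 0.963 to 0.966). As for Klf15, the coefficients describe these arrays only and have no p-value. They also hold for 1416981_at only. There the log2 signal of wild-type replicate 1 lay at -0.59 from the mean of the arrays, but at 0.10 and -0.05 for 1416983_s_at and 1416982_at.

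Foxo3, known in muscle as an activator of ubiquitin ligases and autophagy genes, was close to wild type at both probe sets tested. The signals of 1434831_a_at were 306, 289, 373 and 355 in GR KO muscle, against 460, 343, 343 and 253 in wild-type muscle. The highest and the lowest array were both wild type, so the GR KO signals lay inside the wild-type range. At 1434832_at the signals were 132, 153, 148 and 124 in GR KO muscle, against 150, 150, 157 and 152 in wild-type muscle, and the 4 wild-type signals differed by only a few units. The log2 fold changes were -0.06 ± 0.19 and -0.13 ± 0.14 (SE, limma adjusted p = 0.979 and 0.963). The interval at 1434832_at ran from 73.3% to 113% of the wild-type level.

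Foxo4, a FoxO factor whose gene lies on the X chromosome, had 1 probe set above the filter. Signals at 1456753_at were 655, 423, 572 and 509 in GR KO muscle, against 816, 544, 655 and 675 in wild-type muscle. The groups overlapped, as GR KO replicates 1 and 3 exceeded wild-type replicate 2 and GR KO replicate 1 equalled wild-type replicate 3 at 655. The log2 fold change was -0.32 ± 0.17 (SE, 95% interval -0.70 to 0.06, limma adjusted p = 0.963), the lowest of the 6 FoxO probe sets tested. The dim probe sets 1450236_at of Foxo3 and 1422149_at of Foxo4 had signals of 1 to 11 and 17 to 25 in GR KO muscle and 1 to 12 and 2 to 38 in wild-type muscle. When the probe sets of a gene were averaged, the dim one turned the log2 fold change of Foxo4 to 0.28, and that of Foxo3 was -0.24.

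Sestrins restrain mTORC1 and protect from oxidative stress, and Sesn1 and Sesn3 are both known FoxO targets, Sesn1 also of p53. The brightest Sesn1 probe set, 1433711_s_at, had signals of 454, 381, 297 and 284 in GR KO muscle, against 475, 273, 318 and 460 in wild-type muscle. Each group held a high and a low pair of arrays, and the log2 fold change was -0.09 ± 0.22 (SE, limma adjusted p = 0.974). The other 3 Sesn1 probe sets had log2 fold changes of 0.14, -0.07 and -0.22, and the intervals of all 4 spanned 0. GR KO replicate 1 was the highest of the 8 arrays at 1438931_s_at, with 224, and at 1454699_at, with 180, where the other GR KO signals lay between 66 and 146. At 1454699_at the log2 fold change was -0.31 without GR KO replicate 1 and 0.18 without GR KO replicate 3.

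The 2 Sesn3 probe sets differed in sign. The signals of 1449303_at were 152, 111, 82 and 81 in GR KO muscle, against 105, 107, 115 and 149 in wild-type muscle (log2 fold change -0.20 ± 0.23 SE, limma adjusted p = 0.963). Those of 1453313_at were 41, 65, 53 and 55 in GR KO muscle, against 44, 46, 64 and 35 in wild-type muscle (log2 fold change 0.19 ± 0.24 SE, limma adjusted p = 0.963). The groups overlapped at both. With single arrays left out the first ranged from -0.38, without GR KO replicate 1, to -0.08, and the second from 0.06, without wild-type replicate 4, to 0.35, without wild-type replicate 3. The mean of both probe sets gave -0.00046.

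Gadd45a, a stress-induced gene known to take part in the muscle atrophy of denervation and fasting, was measured by 1 probe set, 1449519_at. Its signals were 62, 79, 63 and 71 in GR KO muscle, against 103, 59, 59 and 113 in wild-type muscle. The wild-type arrays formed a high and a low pair, with the GR KO signals between them. The log2 fold change was -0.22 ± 0.25 (SE, limma adjusted p = 0.963), and it was -0.05 without wild-type replicate 4, whose spike-in signal stood apart, and -0.10 without wild-type replicate 1.

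The arrays did not carry the same order from gene to gene. GR KO replicate 1 was the lowest array at both Cdkn1a probe sets and at 1433836_a_at of Depp1, yet the highest at 4 of the 18 probe sets, 2 of Sesn1 among them. Wild-type replicate 1 was the highest at 5 of the 18 and GR KO replicate 4 the lowest at 5. The median over the 18 probe sets of the log2 signal, centred on each probe set's mean, was -0.14, -0.01, -0.11 and -0.19 on GR KO replicates 1 to 4 and 0.22, -0.04, 0.07 and 0.13 on wild-type replicates 1 to 4. GR KO replicate 2 and wild-type replicate 2 lay close together at the boundary between the groups.

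**Figure D3:**
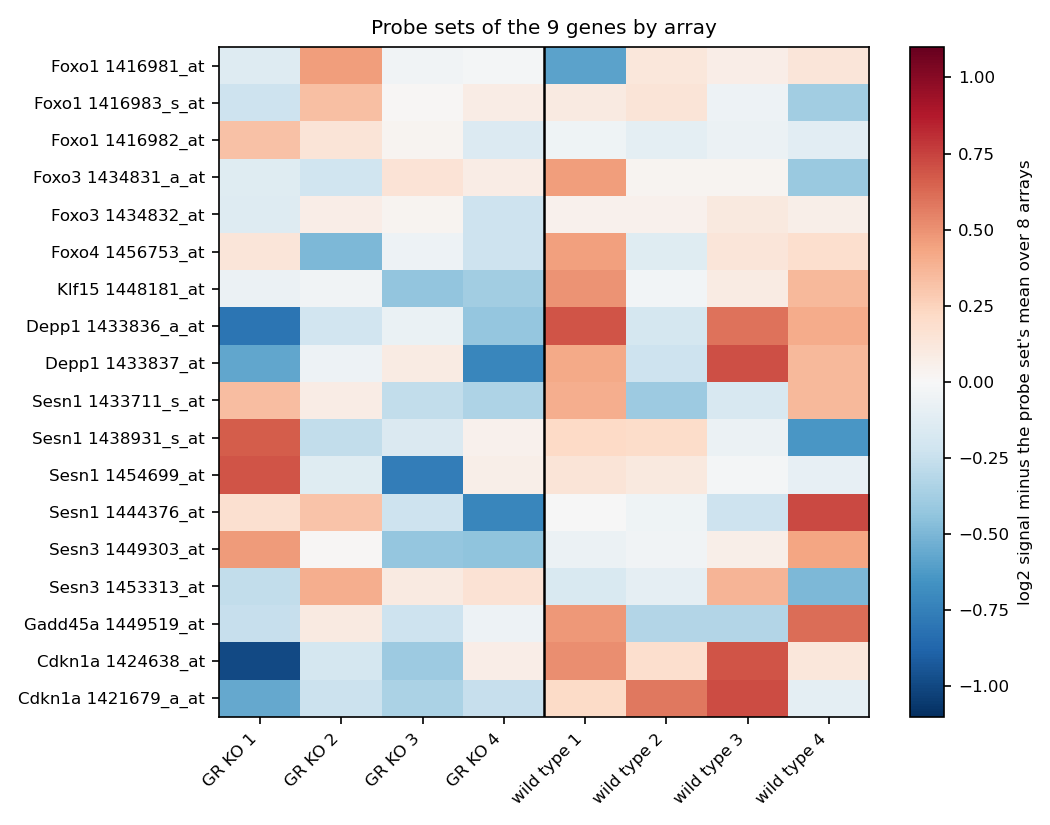
Colours give the log2 signal minus the probe set's mean over the 8 arrays, with a row for each of the 18 probe sets and a column for each array, GR KO left of the line. The Cdkn1a, Depp1 and Klf15 rows are blue on most GR KO arrays and red on most wild-type arrays, and the Foxo1 and Sesn1 rows show no such division.

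Leaving out single arrays did not turn the sign for Cdkn1a, Depp1, Klf15 or Foxo4. The same held for Gadd45a, both Sesn3 probe sets, Foxo1 1416982_at, Foxo3 1434832_at and Sesn1 1444376_at. A kept sign therefore does not set the genes named first apart. The log2 fold change ranged from -0.85 to -0.58 at 1421679_a_at and from -0.90 to -0.55 at 1424638_at of Cdkn1a. It ranged from -0.95 to -0.62 at 1433836_a_at and from -0.81 to -0.49 at 1433837_at of Depp1, from -0.55 to -0.37 for Klf15, and from -0.42 to -0.21 for Foxo4. None of these fits called any of the 18 probe sets.

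**Figure D4:**
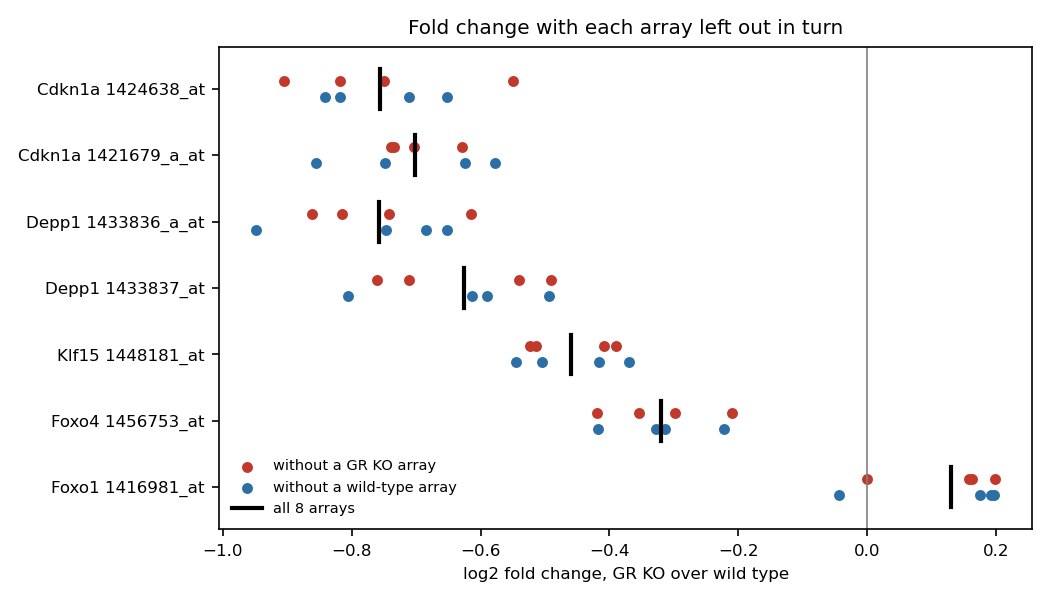
Points are log2 fold changes of GR KO over wild type in limma with 1 GR KO array (red) or 1 wild-type array (blue) left out, and black bars give the value over all 8 arrays. The points of Cdkn1a, Depp1, Klf15 and Foxo4 lie below 0, and those of Foxo1 fall on both sides, from -0.045 to 0.20.

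Other genes of the pathway were taken from 5 lists holding 99 genes, and in limma 0 of their probe sets passed in either direction. The lists share a few genes, Pdk4, Mdm2, Cdkn1b and Sesn2 among them. Among regulators and partners of FoxO, 23 of 27 genes were tested with 70 probe sets, of which 36 lay below 0, and the median log2 fold change was -0.0035. Over all probe sets tested, 52.2% lay below 0. At an unadjusted p under 0.05, 0 of the 70 were lower and 2 higher, close to the background of 2.07% lower and 1.68% higher. The proteins of the 14-3-3 genes Ywhaq and Ywhab hold phosphorylated FoxO in the cytoplasm. Ywhaq and Ywhab differed by log2 fold changes of 0.32 ± 0.13 and 0.30 ± 0.13 (SE), and all GR KO signals of both lay above the wild-type signals. Of the 70, GR KO signals lay above all wild-type signals at 4 and below all at 0. Among all probe sets tested, 0.981% lay above and 1.21% below. The 4 include 2 further Ywhab probe sets, with 0.26 and 0.24, and probe sets of one gene are not independent. Apart from the first probe sets, Ywhaq had -0.07 to 0.19 and Ywhab 0.02 to 0.26. Another 14-3-3 gene, Ywhae, had -0.34, -0.28 and -0.24 at its 3 brightest probe sets, and those of Ywhag and Ywhaz had values on both sides of 0, so the 14-3-3 genes had no common direction. Stk4, a kinase that phosphorylates FoxO under oxidative stress, had -0.42 ± 0.19, and -0.31 at its other probe set (limma adjusted p = 0.963 for all 3 genes at the probe sets named first).

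Further FoxO target genes had log2 fold changes below 0 at 51 of 65 probe sets, from 29 of 30 genes, with a median of -0.17. Of the 65, 5 were lower at an unadjusted p under 0.05 and 0 higher, against 2.07% and 1.68% of all probe sets, and the 5 come from 4 genes, since 2 are of Cited2. Cited2, a transcriptional coregulator, had signals of 443, 285, 240 and 352 in GR KO muscle, against 647, 425, 533 and 636 in wild-type muscle at 1452207_at (log2 fold change -0.78 ± 0.21 SE), and -0.65 at its other probe set. At 1452207_at the groups overlapped only through GR KO replicate 1 and wild-type replicate 2. Rbl2, a pocket protein of the cell cycle, had -0.76 ± 0.31 and, at its other probe set, -0.41. Ulk1, the kinase that starts autophagy, had -0.56 ± 0.25 at its named probe set and -0.07 at a brighter one. None of the 3 passed (limma adjusted p = 0.963). Pdk4, which stands in this list and in that of Klf15 targets, had the highest value of both. Its signals were 679 to 1878 in GR KO and 310 to 1272 in wild-type muscle (log2 fold change 0.72 ± 0.41 SE, limma adjusted p = 0.963). With 1 probe set per gene, the brightest, the median of the list was -0.12.

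Klf15 target genes had log2 fold changes below 0 at 14 of 18 probe sets, from 10 of 14 genes, with a median of -0.23, and 4 were lower and 0 higher at an unadjusted p under 0.05, against 2.07% and 1.68% of all probe sets. Those 4 come from 2 genes, 3 from Gpt2 and 1 from Prodh. Gpt2, the mitochondrial alanine aminotransferase, had signals of 144, 151, 152 and 179 in GR KO muscle, against 239, 277, 324 and 314 in wild-type muscle at 1434542_at. The groups were well apart, and the log2 fold change of -0.88 ± 0.15 (SE, limma adjusted p = 0.236) was the nearest to the threshold in the 5 lists. Further Gpt2 probe sets had -0.76, -0.54 and -0.04, so 4 of the 18 values of this list come from 1 gene. The value of -0.04 was that of the brightest Gpt2 probe set, where the groups overlapped. Its signals were 868 to 1394 in GR KO and 843 to 1533 in wild-type muscle, so the lower Gpt2 signal was not seen there. Prodh, the first enzyme of proline breakdown, had -0.65 ± 0.26, and Acadm, a fatty acid dehydrogenase, -0.31 ± 0.17 (limma adjusted p = 0.963 for both). Pdk4, also in this list, had its highest value, 0.72. With the brightest probe set of each gene alone, the median of the list was -0.090.

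Genes that p53 switches on, as it does Cdkn1a, Sesn1 and Gadd45a, showed no common direction. Of 19 probe sets from 12 of 15 genes, 9 lay below 0, the median was 0.03, and 0 had an unadjusted p under 0.05. Mdm2, the ubiquitin ligase of p53, had -0.51 ± 0.29 at one probe set and 0.05 at the other, Phlda3, an inhibitor of Akt, had 0.31 ± 0.20, and Aen, a nuclease, had -0.28, 0.39 and -0.01 at its 3 probe sets.

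Among relatives of the 9 genes, 40 probe sets from 17 of 18 genes were tested, and 24 lay below 0. At an unadjusted p under 0.05, 4 were lower, from 3 genes, and 1 higher, against 2.07% and 1.68% of all probe sets. GR KO signals lay below all wild-type signals at 1 of the 40 and above all at 1. Among all probe sets tested, 1.21% lay below and 0.981% above. Gadd45g, a paralogue of Gadd45a, had signals of 99, 137, 190 and 158 in GR KO muscle, against 318, 229, 292 and 516 in wild-type muscle. The groups did not overlap, and the log2 fold change was -1.19 ± 0.26 (SE, limma adjusted p = 0.914), while that of Gadd45a was -0.22. Whether the 2 paralogues differ was not tested. Gadd45b, the third of the family, had -0.53 ± 0.17, with overlapping groups, and its further probe sets had -0.53 and -0.30. Cdkn1c, which encodes the p57 relative of p21, had 532, 465, 462 and 451 in GR KO muscle, against 393, 381, 390 and 378 in wild-type muscle, with GR KO signals above all wild-type signals (log2 fold change 0.31 ± 0.12 SE, limma adjusted p = 0.963). The median of this list was -0.07 over its probe sets and 0.12 over the brightest probe set of each gene, so the sign of the median depended on that choice.

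**Figure D5:**
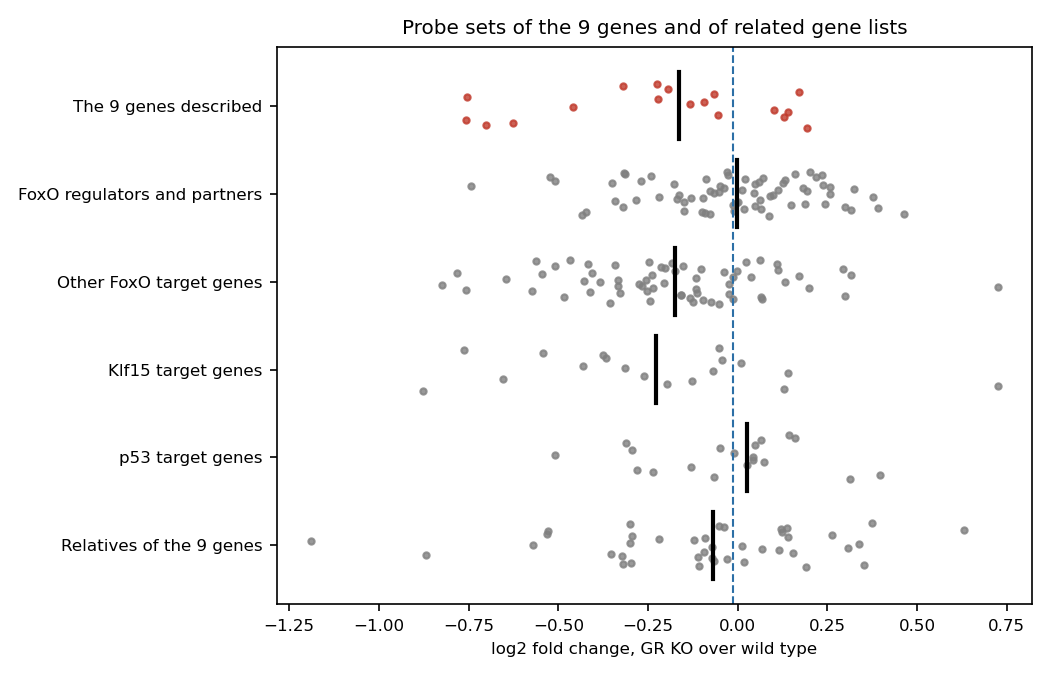
Points are log2 fold changes of GR KO over wild type for single probe sets above the filter, in a row for the 9 genes (red) and for each of the 5 lists (grey), spread vertically at random. Black bars are medians, -0.16 for the 9 genes and -0.17 and -0.23 for further FoxO and Klf15 targets, and the dashed line is the median of all probe sets tested, -0.01.

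The tissue label and other cell types were checked with marker genes. All 12 markers of muscle fibres lay above the filter. Their summed signal was 98659 to 147826 on the GR KO arrays and 108409 to 218850 on the wild-type arrays. Of the 12 log2 fold changes 9 lay below 0 and 3 above, with a median of -0.09. All 8 endothelial markers lay above the filter too. Their summed signal was 3610 to 5187 on the GR KO arrays and 2771 to 3476 on the wild-type arrays, without overlap. Of the 8 log2 fold changes, 7 lay above 0. The 8 fibroblast and matrix markers summed to 11054 to 15662 on the GR KO arrays and 6527 to 12255 on the wild-type arrays. Of their log2 fold changes 5 lay above 0 and 3 below, and of those of Schwann cell markers 4 and 0. For smooth muscle markers 4 lay above and 1 below, and for macrophage markers 4 and 4. For adipocyte and satellite cell markers the counts were 3 and 1 each, and for erythrocyte markers 1 and 1. Wild-type replicate 4, whose spike-in signal stood apart, had the lowest sum for endothelial, fibroblast, adipocyte, Schwann cell and satellite cell markers. It had the highest sum for muscle fibre and macrophage markers. Summed signals of macrophage, adipocyte, Schwann cell, smooth muscle, erythrocyte and satellite cell markers overlapped between the groups. No marker was listed at 0 on any array except 1 satellite cell marker. The part of these cell types in the values of the 9 genes was not tested.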

How the data were processed

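The authors deposited MAS5 signal intensities on a linear scale, per the submitters' processing notes; no source used here gives the MAS5 version or scaling target. All arrays had the same mean, 99.96, after trimming 2% at each end. From these values log2 signals were taken without a pseudocount, and a value of 0 took the array's smallest positive value (1 such value among those tested).

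The 64 control probe sets were left out. The platform annotation gave 1 gene symbol for 34945 of the remaining 45037, several for 932 and none for 9160, and 34741 matched RefSeq by gene identifier. The 22518 probe sets with a mean log2 signal above the median, a signal of 19.4, entered a two-sided moderated test in limma 3.58.1 (R 4.3.3), with a prior variance that follows the mean signal. P-values were adjusted by Benjamini-Hochberg over all of them, with a threshold of 0.05. The steps were tested on simulated data, with planted shifts larger than any difference at the tested probe sets of the genes described. Whether differences as small as theirs could be called was not tested. Fold changes are GR KO over wild type from mean log2 signals, and errors are standard errors of the fit unless given as SD. Nothing in the labels ties the samples to separate animals, and p-values then reflect only how far these samples spread, partly perhaps for technical reasons. Python 3.11.15 drew the figures and searched the promoter windows.

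The 9 genes, the 5 lists, the markers and the tests were chosen with earlier results of these data known. Named genes were all probe sets of the 9 genes, Nr3c1, from each list the 3 genes of smallest p, and the 3 genes nearest to Foxo1 and to Klf15. Alternatives were another normalization (quantile, median centring), a pseudocount of 6 (the 25th percentile), no filter or the 70th percentile (a signal of 61.5), 1 value per gene, other variance priors, array weights, a replicate block, the spike-in signal as covariate, and each array left out. Nothing in the labels says that replicate numbers pair the samples. Deviations from the group means correlated at -0.12, 0.11, 0.09 and -0.38 between arrays of the same number. So few correlations cannot settle whether the samples were paired.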

Additional observations from a re-analysis of the deposited data

Results flagged for a closer look

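Of the 36 groups of 4 signals behind the 18 probe sets, 1 held an array far from the others. On the log2 scale, wild-type replicate 1 stood apart at Foxo1 probe set 1416981_at, with a signal of 262 where the other wild-type arrays had 428, 414 and 432, and its gap to the nearest of them was 0.915 of the group's range. Some groups of 4 hold an array that far out by chance alone, and no pattern is read from a single one.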

How the results depend on the processing

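No setting called any of the 18 probe sets or any probe set of the 5 lists, and the lowest adjusted p among the 18 was 0.321, at Cdkn1a 1421679_a_at with array weights. The number called over the whole table, 5, was 3 with quantile normalization, 0 without the filter, 1 with the mean of the probe sets of each gene, 1 with eBayes without trend and 10 with array weights. It ranged from 0 to 5 with single arrays left out, being 0 without wild-type replicate 1 or 3 or GR KO replicate 2, 3 or 4, 2 without GR KO replicate 1 and 3 without wild-type replicate 2. Nr3c1 1460303_at was called in 10 of 19 alternatives, with adjusted p-values of 0.00328 to 0.191 over all 19 and a log2 fold change of -1.15 with the mean of its probe sets. In the remaining setting, the brightest probe set of each gene, Nr3c1 stood as 1421867_at and was not called (limma adjusted p = 0.777). With the replicate number as a block the number called was 0, and the lowest adjusted p among the 18 was 0.990. In the labels the samples share only a number. Only GR KO replicate 2 correlated best with its own number, at 0.114 against 0.113 with wild-type replicate 4. The highest correlation, 0.56, was between GR KO replicate 1 and wild-type replicate 4. The median of the 18 ranged from -0.27 to -0.087 with single arrays left out. With the brightest probe set of each gene, list medians were -0.12 for further FoxO targets, -0.090 for Klf15 targets and 0.12 for the relatives. The cause of these differences was not tested. Of 340 refitted values of the 18 probe sets, 327 kept their sign and 13 did not. The sign turned for Foxo4 with the mean of the probe sets of each gene (0.28), where a dim probe set entered, and for Sesn1 1438931_s_at with array weights (-0.10). With single arrays left out it turned for Foxo1 1416981_at (-0.045 to 0.20), Foxo1 1416983_s_at (-0.011 to 0.19), Foxo3 1434831_a_at (-0.20 to 0.086), and for Sesn1 1433711_s_at (-0.24 to 0.024), 1438931_s_at (-0.059 to 0.25) and 1454699_at (-0.31 to 0.18). Background correction and scan batch could not be varied, since scanner files were not analysed here.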
